A study of Mus musculus with 2 samples.

Results

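The cytosolic ribosomal protein genes were taken as all genes of the count table whose symbol is Rpl or Rps with a number and at most a short suffix, together with Rpsa, Rplp0, Rplp1 and Rplp2. The rule found 83 of 32285 genes, and all 83 had an entry by Ensembl identifier in GENCODE vM21 (GRCm38), on 19 chromosomes with 4 on the X chromosome. At least 50 UMIs per 1000000 (CPM) in the cells of the 4 groups together were found for 80 of them, 32 of the small (40S) and 48 of the large (60S) subunit. The 3 below this level were Rpl39l at 1.61 CPM, Rpl3l at 0.115 CPM and Rpl10l, which had no UMI.

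Primary vascular smooth muscle cells (VSMCs) from the aortas of C57BL/6 mice were hashed with oligo-tagged antibodies, mixed and sequenced as 1 droplet library. The groups were young cells from mice of 12 weeks (tag 1), old cells from mice of 58 to 78 weeks (tag 2), young cells given angiotensin II (AngII) at 1e-07 M for 48 h (tag 3) and old cells transfected with an siRNA against Piezo1 at 20 nM (tag 4). AngII is a peptide hormone that makes VSMCs contract and grow, and Piezo1 is a stretch-gated cation channel. The cells were bought as primary cultures. Each group was 1 tag and no replicate cultures were told apart within it, so no test between groups was possible. Every interval covers counting error only. The tags were matched to the groups through the numbering of the study's schematic, although nothing there says that it refers to hashtags. A nontargeting siRNA pool is described in the methods, but whether the sequenced old cells received it is not stated. The siRNA dose is that of the labels, and another passage of the study gives a different one.

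The cytosolic ribosome is built of a small subunit, which reads the mRNA, and a large subunit, which joins amino acids. Each protein of the particle is needed in about the same amount, and the mRNAs of most of them begin with a run of pyrimidines, the terminal oligopyrimidine tract, through which TOR signalling sets their translation. In growing smooth muscle cells, ribosome production accompanies the gain in cell mass. Some members have further roles outside the particle, such as the binding of Mdm2 by Rpl5 and Rpl11.

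The starts of 6 of the members named in the comparisons below are shown, 5′ to 3′ on the strand of the gene. Each has the 35 bases before and the 25 bases from the start listed in RefSeq (GRCm38.p6). Capitals mark the longest run of C and T in these 60 bases, read on the strand of the gene only. For Rpl10a the second of 2 listed starts is given.
Rpl22l1, chr3:28805473-28805532, plus strand: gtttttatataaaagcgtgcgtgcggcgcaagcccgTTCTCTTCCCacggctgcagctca
Rpl10a, chr17:28328530-28328589, plus strand: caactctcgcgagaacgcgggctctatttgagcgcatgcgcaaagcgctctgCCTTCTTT
Rps12, chr10:23787185-23787244, minus strand: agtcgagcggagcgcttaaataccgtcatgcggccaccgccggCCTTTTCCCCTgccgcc
Rps2, chr17:24720028-24720087, plus strand: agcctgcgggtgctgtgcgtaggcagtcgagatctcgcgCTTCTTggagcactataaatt
Rpsa, chr9:120127731-120127790, plus strand: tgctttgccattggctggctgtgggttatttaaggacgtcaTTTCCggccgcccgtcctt
Rpl7l1, chr17:46782632-46782691, minus strand: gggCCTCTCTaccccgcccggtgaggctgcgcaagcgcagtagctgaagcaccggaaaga
The run was 10 bases in Rpl22l1, 8 in Rpl10a and 11 in Rps12. In Rpl10a it began 17 bases after the start shown and reached the end of the window, so it may be longer. At the first listed start of Rpl10a the longest run was 7 bases and lay before that start. It was 6 bases in Rps2, 5 in Rpsa and 7 in Rpl7l1, where it lay before the start.

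Of the 83 members, 63 were in the table of starts, and 32 of these (50.8%) had a run of at least 8 pyrimidines in this window, against 23.5% of the 27025 genes of the table and 28.9% of the 38 mitochondrial ribosomal protein genes in it (first listed start of each gene). The letters GGAAG, the core that ETS factors are known to bind, were found on either strand of the full sequence in the table (250 bases before to 50 after the start) in 58 of the 63 members (92.1%) and in 71.1% of all genes. TATAAA, searched on the strand of the gene in the 35 bases before the start, was found in 2.38% of all genes and in 1 of the 63 members (1.59%), which was Rpl22l1. A match says only that these letters are there.

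Across the library, 13045 barcodes passed as cells, with at least 200 genes and a UMI total of at least 10% of the 99th percentile among the 10000 deepest, and 3144, 497, 1500 and 1529 of them carried tag 1, 2, 3 or 4 alone, with median totals of 6816, 10663, 9453 and 9792 UMIs. No tag was carried by 40.7% of cells and more than 1 tag by 8.19%, and these were left out. Piezo1, against which the siRNA was directed, had a level of 71.6 CPM in tag 1, 89.6 in tag 2, 108 in tag 3 and 86.9 in tag 4, so that tag 4 over tag 2 was 0.969 (0.874 to 1.08). The target therefore did not check the label, and the cells of tag 4 are called siPiezo1 cells after their label only. The study itself reports lower Piezo1 in siPiezo1-treated old cells by qRT-PCR, by immunostaining and in its own reading of the single-cell data. The ratio here differs from that reading. The contractile genes Acta2 and Tagln were at 174 to 568 and 415 to 957 CPM, while Myh11, which defines mature smooth muscle, was at 1.94 to 7.89 CPM. Markers of macrophages, endothelium and epithelium summed to at most 11.7, 9.04 and 44.8 CPM in any tag, with C1qa at 0.

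The tags also differed in sex-linked transcripts, mitochondrial UMIs and interferon response genes. Cells in which Y-linked but not Xist transcripts were found (Y-only cells) made up 54.1% and 55.5% of tags 1 and 3, but 19.5% and 13.8% of tags 2 and 4. Cells with Xist alone (Xist-only cells) made up 4.90% and 6.27% of tags 1 and 3 and 63.0% and 66.8% of tags 2 and 4. Age and the sex of the cells can therefore not be told apart in the pooled comparison of tags 2 and 1. The median mitochondrial share was 1.08% of UMIs in tag 1, 1.84% in tag 2, 0.224% in tag 3 and 1.86% in tag 4. The 8 interferon response genes listed summed to 2920 CPM in tag 1 and to 88.9, 318 and 101 CPM in tags 2, 3 and 4. The 8 listed genes of division summed to 838, 812, 547 and 906 CPM and the 9 listed VSMC genes to 4030, 5530, 4990 and 3590 CPM in tags 1 to 4. The part of these differences in the results that follow was not tested beyond the splits of cells given.

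The share of all gene UMIs that came from ribosomal protein genes lay between 18.66 and 20.69% in the 4 groups. It was 19.60% (95% Poisson interval 19.58 to 19.62) in young cells, 20.55% (20.51 to 20.59) in old cells, 18.66% (18.64 to 18.68) in AngII-treated young cells and 20.69% (20.67 to 20.71) in old cells labelled siPiezo1. AngII-treated cells were thus the lowest and both old groups the highest. The ratio was 1.049 (1.046 to 1.051) for old over young, 0.9521 (0.9507 to 0.9535) for AngII over young and 1.007 (1.005 to 1.009) for siPiezo1 over old. Since these are shares, a cell with fewer ribosomal protein mRNAs and a cell with more of all other mRNAs cannot be told apart. Free RNA had nearly the same share, 19.1% in the 1299325 barcodes with 1 to 100 UMIs.

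Within a group the share differed among cells by more than it did between groups. The middle 50% of cells lay from 17.3 to 21.9% in young cells, 17.7 to 22.8% in old cells, 15.7 to 21.2% in AngII-treated cells and 18.2 to 22.9% in cells labelled siPiezo1, with medians of 19.6, 20.3, 18.3 and 20.5%. AngII-treated cells had the widest range, with the 5th percentile at 10.8% against 13.4 to 14.2% in the others. Both subunits took part, with 8.54, 9.06, 8.30 and 9.05% of UMIs from 40S genes and 11.1, 11.5, 10.4 and 11.6% from 60S genes in tags 1 to 4.

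**Figure D1:**
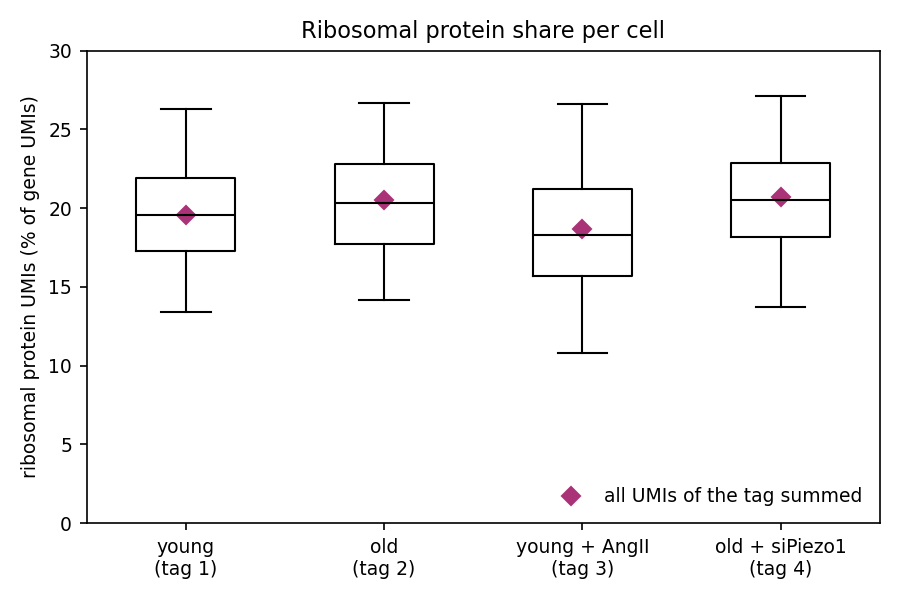
Ribosomal protein UMIs as a percentage of all gene UMIs in the cells of each group (line, median; box, middle 50%; whiskers, 5th to 95th percentile; diamonds, UMIs of the group summed). The medians lie between 18.3 and 20.5% and the boxes overlap in all 4 groups.

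The differences in the summed share were not the same in all kinds of cell. Among Y-only cells, young cells had 19.1%, old cells 19.9%, AngII-treated cells 18.1% and siPiezo1 cells 20.7%, so that AngII-treated cells were again the lowest and siPiezo1 cells the highest. Among Xist-only cells, the share was 20.8% in young (154 cells), 20.7% in old (313 cells), 20.7% in AngII-treated (94 cells) and 20.5% in siPiezo1 cells (1021 cells). In those cells old over young was 0.9905 (0.9864 to 0.9947), AngII over young 0.9943 (0.9890 to 0.9997) and siPiezo1 over old 0.9926 (0.9900 to 0.9953), so neither the higher share of old cells nor most of the lower share with AngII was seen there. The Xist-only cells of tag 1 also had fewer interferon response transcripts (1130 CPM) than its Y-only cells (3180 CPM), and a lower median of their own tag (225 against 399 UMIs). Whether some of them carry a wrong tag was not tested.

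**Figure D2:**
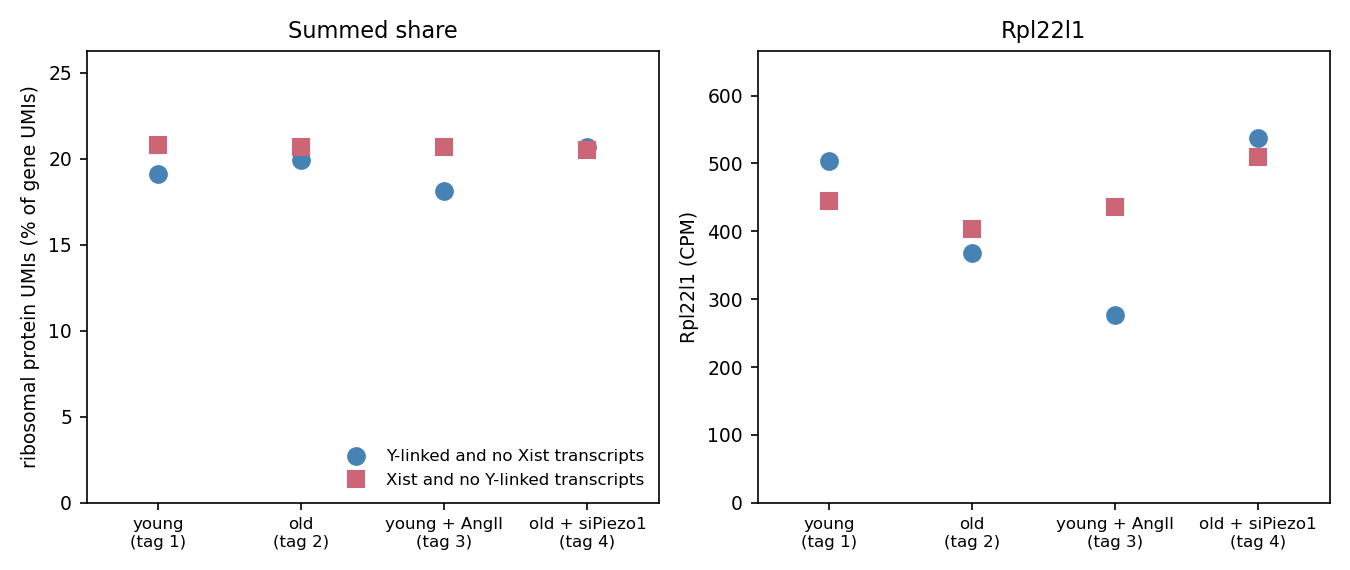
Ribosomal protein share of UMIs (left, %) and Rpl22l1 (right, CPM) in Y-only cells (circles) and Xist-only cells (squares), by group. No error bars are drawn. Counting intervals of the share are smaller than the symbols, but Rpl22l1 rests on fewer UMIs and its counting error is not shown. The circles run from 18.1 to 20.7% and the squares from 20.5 to 20.8%, and Rpl22l1 in AngII-treated cells is 276 CPM in the former and 436 CPM in the latter.

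In all 4 groups, cells with under 0.5% mitochondrial UMIs had the higher ribosomal protein share. It was 20.5 against 19.1% in tag 1, 22.1 against 20.1% in tag 2, 19.3 against 17.6% in tag 3 and 22.3 against 20.2% in tag 4. AngII-treated cells had the most cells under this limit, 60.2% against 31.0, 18.7 and 20.3% in tags 1, 2 and 4, and still the lowest share on each side of it. AngII over young was 0.9394 (0.9374 to 0.9413) under the limit and 0.9226 (0.9205 to 0.9247) above it, both further from 1 than in all cells.

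**Figure D3:**
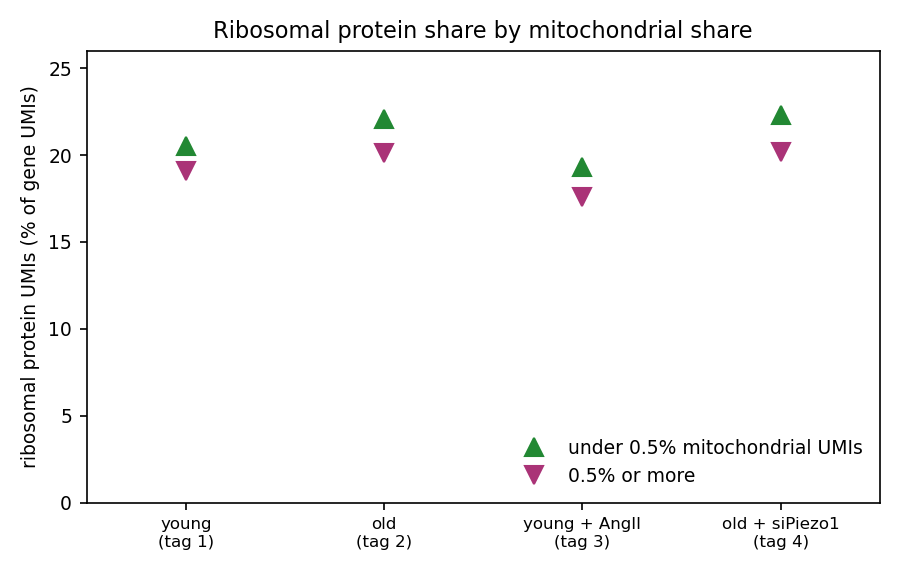
Ribosomal protein share of UMIs (%) in cells with under 0.5% mitochondrial UMIs (upward triangles) and in all other cells (downward triangles) of each group. The upward triangle is the higher in every group, and the AngII-treated cells are lowest on both sides, at 19.3 and 17.6%.

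Few members passed a limit of size, although many lay on the other side of 1 from the summed share. A CPM at least 25% higher, or a ratio of at most the inverse of that, 0.80, was used as a fixed limit of size, which is no test. For old over young, 1 of 80 members reached the upper limit, where 16.0% of the 3277 genes at 50 CPM or more did, and 2 were at or below 0.80, where 18.2% of genes were. For AngII over young the counts were 0 (19.2% of genes) and 3 (15.3%), and for siPiezo1 over old they were 1 (4.67%) and 0 (2.90%). At 500 CPM or more there were 271 genes, with the 78 members at that level among them. The limit was passed in either direction by 36.2% for old over young, 36.2% for AngII over young and 9.96% for siPiezo1 over old. Of the 78 members, 1, 2 and 0 did, so the shares among the other genes were higher than these.

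The median member ratio was 1.04 for old over young, 0.972 for AngII over young and 1.01 for siPiezo1 over old, and the middle 80% of members lay from 0.962 to 1.15, from 0.845 to 1.04 and from 0.953 to 1.06. Over all genes at 50 CPM or more the medians were 1.01, 1.03 and 0.999, and the middle 80% spanned 0.658 to 1.37, 0.726 to 1.38 and 0.882 to 1.16. In old cells 59 of 80 members were above 1 and 21 below, and with AngII 27 were above 1 and 53 below. The whole counting interval lay above 1 for 50 members and below 1 for 15 in old cells, for 17 and 47 with AngII, and for 32 and 24 with siPiezo1. The same was not counted over all genes. Members have many UMIs and narrow intervals, so these counts are not read as a result about the family. The small subunit stood slightly higher than the large one in both contrasts with young cells, with medians of 1.06 and 1.04 for old and of 0.980 and 0.946 for AngII.

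**Figure D4:**
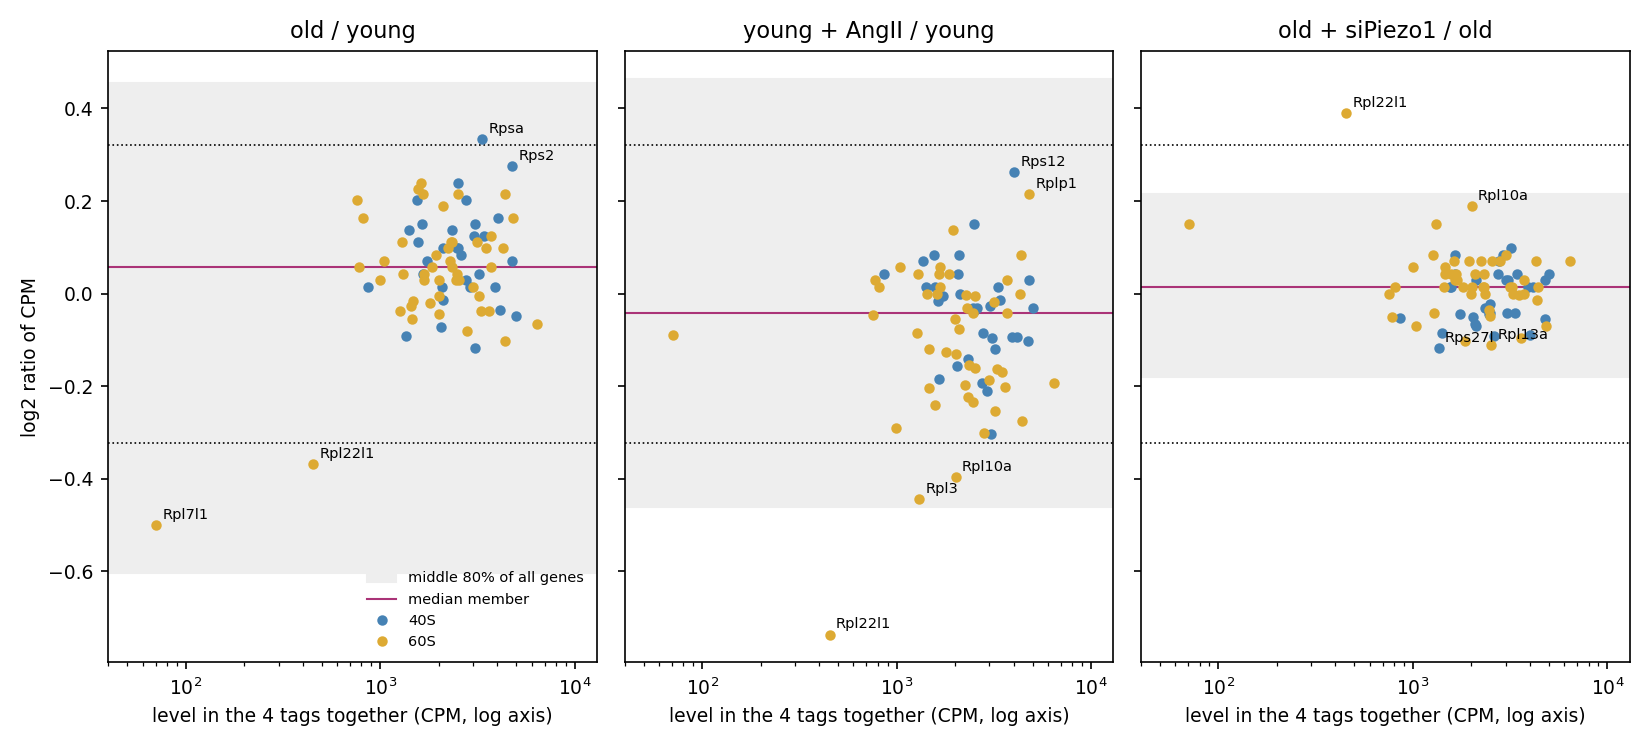
Log2 ratio of CPM of the 80 members against their level in the 4 groups together (CPM, log axis) for old over young, AngII over young and siPiezo1 over old; dotted lines mark the limits of size, the purple line the median member, and the grey band the middle 80% of the 3277 genes at 50 CPM or more. Rpl22l1 lies outside the dotted lines in all 3 comparisons, at ratios of 0.775, 0.600 and 1.31.

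Rpl22l1 stood furthest from the rest. It encodes a paralog of Rpl22, an RNA-binding protein of the large subunit, and either can be built into the ribosome. Rpl22l1 (ENSMUSG00000039221, GRCm38 chr3:28805436-28807424) had 511 CPM (95% Poisson interval 502 to 520) in young cells and 396 (380 to 413) in old ones, with 307 (298 to 316) after AngII and 520 (509 to 531) with siPiezo1. The young and siPiezo1 cells were alike within their intervals, old cells were lower and AngII-treated cells lowest. Its ratios were 0.775 (0.740 to 0.811) for old over young, 0.600 (0.580 to 0.621) for AngII over young and 1.314 (1.254 to 1.378) for siPiezo1 over old.

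Rpl22 itself was slightly higher in old and AngII-treated than in young cells, at 1256, 1353, 1295 and 1315 CPM, with ratios of 1.08, 1.03 and 0.972. In Y-only cells the ratios of Rpl22l1 were 0.731, 0.549 and 1.46. In Xist-only cells they were 0.905 (0.825 to 0.993), 0.978 (0.868 to 1.10) and 1.26 (1.19 to 1.34), so that its lower level with AngII was not seen in the 94 AngII-treated cells of that kind, while the higher level with siPiezo1 was.

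With AngII, 2 further members were at or below 0.80, both of the large subunit. Rpl3 (chr15:80077791-80091868), which reaches the peptidyl transferase centre, was at 1343 CPM in young, 1384 in old, 988 in AngII-treated and 1541 in siPiezo1 cells. Rpl10a (chr17:28328471-28331033), a protein of the L1 stalk, had 2046, 2079, 1556 and 2371 CPM in tags 1 to 4. Both were lowest in AngII-treated and highest in siPiezo1 cells. AngII over young was 0.735 (0.721 to 0.750) for Rpl3 and 0.760 (0.749 to 0.772) for Rpl10a, and siPiezo1 over old was 1.11 (1.09 to 1.14) and 1.14 (1.12 to 1.16). In Xist-only cells the AngII ratios were 0.888 (0.827 to 0.953) for Rpl3 and 0.919 (0.869 to 0.971) for Rpl10a, past the limit for neither.

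Among the members furthest above the others with AngII were Rps12, Rplp1 and Rpl37a. Rps12, a protein of the small subunit, was at 3725 CPM in young, 4180 in old, 4477 in AngII-treated and 3930 in siPiezo1 cells. AngII over young was 1.20 (1.19 to 1.21), which was 1.24 times the median member. The ratios were 1.16 (1.15 to 1.17) for Rplp1 and 1.10 (1.08 to 1.11) for Rpl37a. In Xist-only cells Rps12 was at 1.13 and Rpl37a at 1.07, while Rplp1 turned to 0.983, with an interval that held 1.

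**Figure D5:**
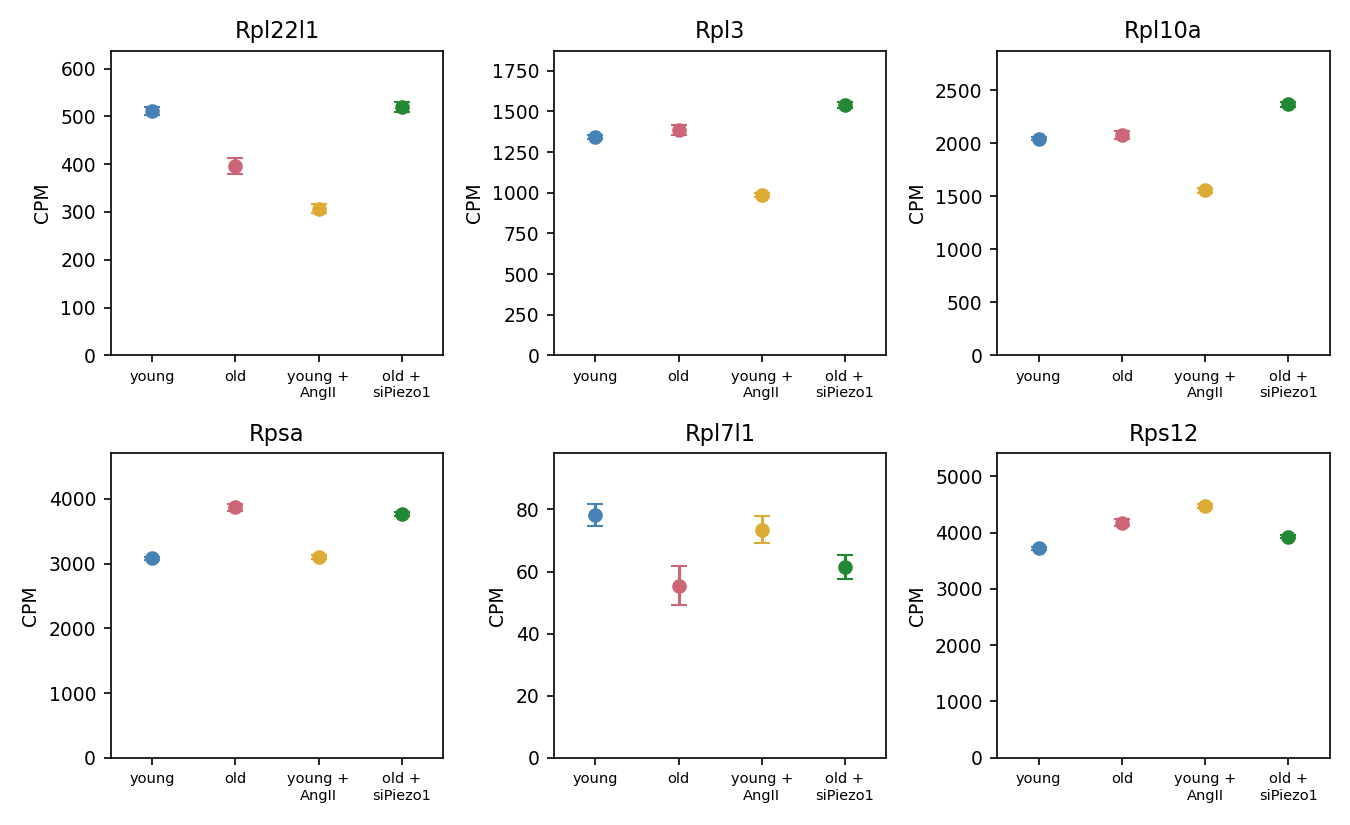
CPM of 6 members in each group (points, summed UMIs of 1 tag, and bars, exact Poisson 95% intervals), each axis starting at 0. Rpl22l1, Rpl3 and Rpl10a are lowest in AngII-treated cells, Rpsa is higher in both old groups, and Rpl7l1 is lowest in old cells at 55.2 CPM.

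In old cells the member furthest above was Rpsa (chr9:120127689-120132369), the ribosomal protein of the small subunit that is also known as the laminin receptor. Rpsa had 3078 CPM (3056 to 3100) in young cells and 3869 (3817 to 3921) in old ones, with 3105 (3077 to 3133) after AngII and 3762 (3732 to 3792) with siPiezo1. The old groups lay above both young groups. Old over young was 1.26 (1.24 to 1.28), just past the limit, and it was 1.30 in Y-only cells, while in Xist-only cells its interval ran from 0.971 to 1.03. Rps2, also of the small subunit, followed at 1.21 (1.20 to 1.23), then Rpl5 at 1.18 (1.16 to 1.21). Rps2 was 0.998 in Xist-only cells.

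Rpl7l1 (chr17:46773907-46782672), a relative of Rpl7 that acts in the making of ribosomes, was the least counted member at the level floor, with 308 UMIs in old cells. It had 78.1 CPM (74.7 to 81.8) in young cells and 55.2 (49.2 to 61.7) in old ones, with 73.5 (69.2 to 77.9) after AngII and 61.5 (57.7 to 65.4) with siPiezo1. Both old groups lay below both young groups. Old over young was 0.707 (0.624 to 0.798), and it stayed between 0.682 and 0.787 under all 13 other choices of cells or scaling, the Xist-only cells included. Rpl19 at 0.932 was among the next lowest members in old cells.

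For siPiezo1 over old the members lay close together. Apart from Rpl22l1, the highest were Rpl10a at 1.14, Rpl3 at 1.11 and Rpl7l1 at 1.11 (0.978 to 1.27), and the lowest were Rps27l at 0.922 (0.898 to 0.948), Rpl13a at 0.926, Rplp2 at 0.932 and Rpl27a at 0.935. In Y-only cells Rpl13a, Rplp2 and Rpl27a turned to 1.05, 1.07 and 1.06. No member other than Rpl22l1 was past the limits relative to the median member.

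The 3 proteins of the P stalk, which recruits the elongation factors, did not share 1 ratio. Rplp1 was at 4514 CPM in young, 5069 in old, 5219 in AngII-treated and 4833 in siPiezo1 cells. Rplp0 was at 3595, 3920, 3495 and 4009 CPM, and Rplp2 at 1844, 1922, 1902 and 1792 CPM. With AngII the ratios were 1.16 for Rplp1, 0.972 for Rplp0 and 1.03 for Rplp2, and for old over young they were 1.12, 1.09 and 1.04. In Xist-only cells Rplp1 was at 0.983 with AngII, and the old-to-young ratios were 1.02, 0.989 and 0.976.

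Rpl5 and Rpl11, which bind the 5S rRNA, differed in old cells. Rpl5 had 1500 CPM in young cells and 1773 CPM in old cells, while Rpl11 was at 2375 and 2464 CPM (ratio 1.04). With AngII Rpl5 was at 1506 CPM, near its level in young cells, and Rpl11 at 2036 CPM (0.857). Of the 8 listed p53 response genes at 50 CPM or more, 0 reached the upper limit in old cells. There 1 was at or below 0.80 (Phlda3, 0.769), and none of the 8 passed either limit with AngII. Of all genes at that level, 16.0% and 18.2% passed the upper and the lower limit in old cells, and 19.2% and 15.3% with AngII. With 8 genes, these counts cannot be told apart from those shares.

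The X-linked members Rps4x, Rpl10 and Rpl36a were higher in old cells, at ratios of 1.15, 1.17 and 1.15, while Rpl39 was at 0.970. In Xist-only cells the old-to-young ratios were 1.01 for Rps4x, 1.02 for Rpl10 and 1.06 for Rpl36a, with intervals that held 1, and 0.927 for Rpl39. Rps4x was at 2626, 3023, 2474 and 3175 CPM in tags 1 to 4 and Rpl10 at 1518, 1781, 1284 and 1834 CPM. With AngII Rpl10 was at 0.846, Rps4x at 0.942, Rpl36a at 0.968 and Rpl39 at 0.963. The other old-to-young ratios of members named by the rule were 1.03 for Rps6, the substrate of S6 kinase, 1.01 for Rps27a, which is made as a fusion with ubiquitin, 1.01 for Rps27 and 1.04 for Rpl41, the shortest ribosomal protein. With AngII these were 0.880, 0.937, 1.03 and 1.02. In Xist-only cells Rps27a and Rpl41 turned to 0.928 and 0.953 for old over young, and Rps27a to 1.03 with AngII.

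Of the paralogs, Rps27l, a p53-induced relative of Rps27, was well expressed at 1405, 1319, 1472 and 1217 CPM in tags 1 to 4, above Rps27 at 857, 867, 887 and 836 CPM in summed UMIs. Because UMIs were counted at the 3′ end, these values are not scaled by length. A row named as a copy of Rps27, Rps27rt, was at 28.1 CPM in the 4 groups together. Reads shared with it make the level of Rps27 uncertain. Rpl39l, a form known from the testis, was at 0.538 to 1.82 CPM.

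Genes of cytosolic ribosomal proteins outside the naming rule gave similar ratios. Rack1, a scaffold on the small subunit, had 1699 CPM in young cells and 2068 CPM in old cells (1.22, 1.19 to 1.24). Fau, which encodes a ubiquitin-like protein fused to a 40S protein, was at 3043 CPM in young and 2575 in AngII-treated cells (0.846, 0.836 to 0.857). Rpl36al was at 638 and 566 CPM (0.888).

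The other genes of translation were counted in the same way, beside the genes at 50 CPM or more, of which 16.0% reached the upper limit and 18.2% were at or below 0.80 in old cells, and 19.2% and 15.3% with AngII. Of 13 ribosome biogenesis genes at 50 CPM or more, 9 reached the upper limit and 0 were at or below 0.80 with AngII (median 1.31), where the members' median was 0.972. Nhp2, of the box H/ACA particles, was at 154 CPM in young and 238 CPM in AngII-treated cells (1.54), and Ddx21, a nucleolar helicase, at 158 and 236 CPM (1.49). In old cells 5 of the 13 reached the upper limit and 1 was at or below 0.80 (median 1.16). Among those above were Nhp2 at 1.44 and Ncl, nucleolin, at 1.40, and the 1 below was Eif6 at 0.795. For siPiezo1 over old none of the 13 passed either limit (median 0.999).

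Of 6 elongation factors, 2 reached the upper limit in old cells (median 1.21), which were Eef1a1 at 1.29 and Eef1b2 at 1.27, and with AngII 1 did, Eif5a at 1.31 (median 0.998). Of 19 initiation factors, 1 and 3 reached the upper limit and 1 and 0 were at or below 0.80 in these comparisons (medians 1.04 and 1.13). With AngII Eif4e, the cap-binding protein, was at 1.37, and the lowest were Eif3m at 0.860 and Eif3f at 0.862. Of 8 other mRNAs with a terminal oligopyrimidine tract, 2 and 3 reached the upper limit (medians 1.14 and 0.946), with Nap1l1 at 1.54 and 1.51. The lowest of them was Vim at 0.859 and 0.837, and Gas5 was at 0.857 with AngII. The counts of initiation factors lay under the shares of all genes. Of 35 mitochondrial ribosomal protein genes, 1 and 2 reached the upper limit and 4 and 6 were at or below 0.80 (medians 0.954 and 0.991), which is near or under the shares of all genes (16.0 and 19.2% above, 18.2 and 15.3% below). Of 5 genes of TOR signalling none passed either limit.

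Members also differed in how they varied among the cells of a group. The spread of a member's UMIs around the count expected from each cell's total of ribosomal protein UMIs was divided by the spread that counting alone gives, so that 1 is counting error. The median member was at 1.37, 1.65, 1.55 and 1.54 in tags 1 to 4. Rps2 was the highest in tags 1, 2 and 4, at 2.49, 3.66 and 2.96, and Rpl12 in tag 3, at 3.25. Rps27 was the lowest in tags 1 and 2, at 1.09 and 1.16. This ratio rises with the number of UMIs counted per cell, and Rps2 and Rpl12 (4473 and 4080 CPM in tag 1) are among the most counted members and Rps27 (857 CPM) among the least, so the order of members and of tags cannot be told apart from level and depth.

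Some of this spread went with depth. In the 25% of cells with the fewest UMIs, Rps26 took 1.21, 1.20, 1.29 and 1.36 times its share of the ribosomal protein UMIs in the 25% with the most, and Rpl38 took 1.14, 1.13, 1.22 and 1.13 times. Rps2 took 0.854, 0.813, 0.840 and 0.817 times its share and Rpl12 took 0.790, 0.894, 0.814 and 0.902 times. These directions were the same in all 4 tags. In cells with under 0.5% mitochondrial UMIs Rpl3 took 0.901, 0.831, 0.875 and 0.886 times its share in the other cells, Rpl4 took 0.889, 0.948, 0.922 and 0.872 times, and Rpl41 took 1.05, 1.13, 1.07 and 1.06 times. The AngII ratio of Rpl3 was 0.739 and 0.748 below and above this limit.

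Cells that led in genes of division had a lower ribosomal protein share in 3 of 4 tags. In the 10% of cells highest in the division list, the share was 18.7 against 19.7% in the rest of tag 1, 18.3 against 18.7% in tag 3 and 19.9 against 20.8% in tag 4, and it was 20.6 against 20.5% in tag 2. Rps27l took 1.18 and 1.19 times its share in those cells of tags 1 and 4, but 1.07 and 0.980 times in tags 2 and 3. In tags 1 to 4, the 10% of cells highest in the listed VSMC genes had 0.973, 0.984, 0.952 and 0.955 times the ribosomal protein share of the rest. The 10% highest in the interferon list had 0.999 times the share of the rest in tag 1, where the interferon genes were highest, and 1.04, 1.02 and 1.04 times in tags 2, 3 and 4.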

How the data were processed

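Gene and hashtag UMI counts were deposited by the authors as raw counts, made with Cell Ranger 4 per the file headers; Seurat is also named in the submitters' processing notes. The genome build was not given in the sources used here. Cells were given to a tag when only that tag exceeded its cutoff (36, 52, 61 and 41 UMIs for tags 1 to 4). No doublet caller was run. CPM are summed UMIs of a tag per 1000000, with exact Poisson intervals. Ratios have exact binomial (Clopper-Pearson) 95% intervals from both counts. These cover counting error only. With 1 tag per group and no replicates told apart, no test was made. In simulated counts with 200 genes changed, 95.6% of intervals held the true ratio for tag 3 over tag 1 (3283 genes). The simulated counts had counting error only, with no spread between cells or cultures. The simulation therefore checks the calculation and not whether the intervals are wide enough for these data. Members named were the 4 furthest above and below the median member in each comparison, and fixed lists; a few of these are not reported here. The members and lists were chosen with earlier results of these data known. Alternatives changed the tag rule, the cells, the denominator and the limits. Members with near-identical copies or pseudogenes share reads and are uncertain. Python 3.11.15, numpy 2.4.6, scipy 1.17.1, pandas 2.3.3 and matplotlib 3.10.9 were used.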

Additional observations from a re-analysis of the deposited data

How the results depend on the processing

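The summed ribosomal protein share kept its direction for old over young under every alternative but the Xist-only cells, and for AngII over young under all. In the order old over young, AngII over young and siPiezo1 over old, Y-only cells gave 1.038, 0.9435 and 1.042, cells with 2 to 10% mitochondrial UMIs 1.084, 0.8817 and 0.9966, cells under 0.5% mitochondrial UMIs 1.077, 0.9394 and 1.009, assignment by the highest centred log ratio 1.044, 0.9494 and 1.010, and Xist-only cells 0.9905, 0.9943 and 0.9926. For old and for AngII over young, cells with at least 5000 UMIs gave 1.051 and 0.9544, leaving out the deepest 10% of each tag 1.040 and 0.9402, thinning to 5000 UMIs 1.044 and 0.9446, leaving mitochondrial UMIs out of the denominator 1.055 and 0.9477, the mean over cells 1.036 and 0.9400, and removal of 5% free RNA 1.051 and 0.9496. Cells with their own tag at least 3 times the next gave 1.068 for old over young and 1.001 for siPiezo1 over old, and cells with at least 0.5% mitochondrial UMIs gave 0.9226 for AngII over young. The siPiezo1 ratio thus lay on either side of 1.

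The count of members past the limits of size, which was 3, 3 and 1, became 0, 1 and 0 with a fold of 1.5. For old over young it was 1 (Rpl7l1) with the 3-fold tag rule, at 2 to 10% mitochondrial UMIs and in Xist-only cells, and 5 with no level floor. For AngII over young it was 7 at 2 to 10% mitochondrial UMIs, 6 without the deepest 10% and in Y-only cells, 5 as the mean over cells and with at least 0.5% mitochondrial UMIs, and 0 in Xist-only cells. For siPiezo1 over old it was 0 with the 3-fold tag rule, where Rpl22l1 was at 1.24, and 3 with no level floor. As shares of the ribosomal protein UMIs alone the counts were 2, 4 and 1. The shares of all genes past the limits were not computed at these other settings. Whether the changes in count are particular to the members was therefore not tested. No named member past the limit turned its direction under any of the 13 alternatives, but members inside it did, among them Rplp1 for AngII over young, which was at 0.983 in Xist-only cells. The cause of these shifts was not tested.

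The Xist-only cells, the split at 0.5% mitochondrial UMIs and the centred log ratio were chosen after seeing the data. No paired analysis was possible because each group was 1 tag with no replicate numbers. Without replicates told apart, no difference has a replicate check. The 3-fold tag rule left only 179 of 497 old cells and 482 of 1529 siPiezo1 cells.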

Other observations

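Cells outside the 4 groups had ribosomal protein shares within or above the range of the groups. Cells with no tag above its cutoff, 5307 in number, had 20.21% of UMIs from ribosomal protein genes, with a middle 50% of 17.5 to 23.2%. The 1068 cells with more than 1 tag had 21.03% (21.00 to 21.05), higher than any of the 4 groups. Rows named as copies of a member were counted at a low level. Rpl9-ps6 was at 59.6 CPM in the 4 groups together, Rpl10-ps3 at 29.2, Rps27rt at 28.1 and Rpl36a-ps1 at 19.7 CPM, while Rpl36-ps4 had no UMI. Rpl9-ps6 had a ratio of 0.853 (0.782 to 0.930) for AngII over young, where Rpl9 had 0.812, and Rpl10-ps3 had 0.757 (0.662 to 0.863), where Rpl10 had 0.846.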
